A study of Homo sapiens with 16 samples.

Results

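The 6 H3K27me3 libraries of this series came from MCF-10A, a nontransformed human breast epithelial cell line, and make up 6 of its 16 CUT&RUN libraries. They were chosen by antibody and treatment: 3 libraries of cells kept in vehicle (PBS) and 3 of cells exposed to 5 mM octanoic acid (OA), a medium-chain fatty acid, both for 24 hours. The cells were seeded in biological triplicate. The other libraries are 6 for H3K4me3 under the same treatments and 2 each for H3K4me3 and IgG in untreated cells, and the IgG lists were used to mark peaks that arise without the H3K27me3 antibody.

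H3K27me3 is laid down by Polycomb repressive complex 2 (PRC2), whose catalytic subunit is EZH2 or EZH1, and is removed by the demethylases KDM6A and KDM6B. The mark is known for covering the promoters of silent developmental regulators in broad domains, often over CpG islands, where it is copied along the chromatin by PRC2 that binds the mark it has written. In CUT&RUN, a nuclease tethered to the antibody releases the DNA beside the mark, and enriched stretches are called as peaks. The question here is how the extent of these stretches differed between vehicle and OA. Neighbouring peaks of a library were joined into a domain when the gap between them was at most 5 kb, so a joined domain can contain stretches with no peak. A domain was assigned to a promoter when any transcript start of GENCODE release 44 lay inside it or at most 3 kb away, otherwise to a gene body when it overlapped a gene, and otherwise to intergenic DNA.

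Some start-site windows and a short domain show what the lists contain. The windows, from RefSeq (GRCh38.p14), run from 250 bases before to 50 bases after the start, 5′ to 3′ on the strand of the gene, with every CpG in capitals. WNT3A (chr1:228006748-228007047, plus strand) and CYP26A1 (chr10:93073643-93073942, plus strand) were shown because a domain spanned their start sites in all 6 libraries. HS6ST3 (chr13:96089857-96090156, plus strand) and PLEKHD1 (chr14:69484478-69484777, plus strand) were shown because a domain spanned theirs in the 3 vehicle libraries and in no OA library.
WNT3A: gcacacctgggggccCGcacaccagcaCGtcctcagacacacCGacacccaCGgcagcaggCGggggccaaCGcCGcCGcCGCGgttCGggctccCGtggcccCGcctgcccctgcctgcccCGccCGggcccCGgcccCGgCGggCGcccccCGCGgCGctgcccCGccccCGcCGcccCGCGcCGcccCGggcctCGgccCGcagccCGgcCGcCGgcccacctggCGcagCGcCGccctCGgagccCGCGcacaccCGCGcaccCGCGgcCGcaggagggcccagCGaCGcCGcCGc
CYP26A1: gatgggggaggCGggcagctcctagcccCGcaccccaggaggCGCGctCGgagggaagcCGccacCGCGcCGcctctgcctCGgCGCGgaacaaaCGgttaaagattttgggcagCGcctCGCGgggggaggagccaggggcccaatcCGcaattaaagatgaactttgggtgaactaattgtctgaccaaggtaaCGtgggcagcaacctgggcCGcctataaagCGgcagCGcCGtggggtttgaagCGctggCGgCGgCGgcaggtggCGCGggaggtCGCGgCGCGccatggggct
HS6ST3: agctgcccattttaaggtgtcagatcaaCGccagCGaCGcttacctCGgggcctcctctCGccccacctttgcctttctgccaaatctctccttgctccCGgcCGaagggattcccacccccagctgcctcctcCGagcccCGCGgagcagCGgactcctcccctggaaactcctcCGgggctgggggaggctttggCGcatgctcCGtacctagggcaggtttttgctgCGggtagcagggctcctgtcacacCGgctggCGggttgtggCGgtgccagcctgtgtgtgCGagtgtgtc
PLEKHD1: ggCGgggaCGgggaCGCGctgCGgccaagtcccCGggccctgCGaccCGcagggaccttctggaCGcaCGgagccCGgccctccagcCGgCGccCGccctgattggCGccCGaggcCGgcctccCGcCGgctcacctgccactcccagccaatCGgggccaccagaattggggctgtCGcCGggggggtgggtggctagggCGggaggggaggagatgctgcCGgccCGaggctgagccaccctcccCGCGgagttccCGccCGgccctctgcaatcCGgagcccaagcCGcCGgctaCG
The WNT3A window held 49 CpG, a number reached by 1.6% of the 35116 windows of that length, and the CYP26A1 window held 32 (reached by 18.9%). The HS6ST3 window held 19 CpG (reached by 42.9%) and the PLEKHD1 window 33 (reached by 17.2%), where the median window held 14. Peaks covered all 300 bases at HS6ST3 in each vehicle library and none in any OA library. At PLEKHD1, peaks covered all 300 bases in vehicle replicates 2 and 3 and none in vehicle replicate 1 or any OA library. In vehicle replicate 1 that window lay in a gap between joined peaks. Within 3 kb of the PLEKHD1 start site, peaks covered 1137, 1226 and 905 bp in vehicle and 227, 0 and 279 bp in OA. Peaks covered the whole CYP26A1 window in every library but OA replicate 3, where it was bare. At WNT3A, peaks covered the whole window in vehicle replicates 1 and 3 and OA replicate 1, and 12 bases of it in OA replicate 3, whereas in vehicle replicate 2 and OA replicate 2 the window lay in a gap between joined peaks.

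Far from promoters, whole domains could be shorter than such a window. An OA-only domain on chromosome 12 (chr12:17932139-17932395 of hg38, plus strand, intergenic, nearest to RERGL) is given whole, again with CpG in capitals, as an example of a high-ranked call found in all 3 libraries of one treatment alone.
Chromosome 12 domain: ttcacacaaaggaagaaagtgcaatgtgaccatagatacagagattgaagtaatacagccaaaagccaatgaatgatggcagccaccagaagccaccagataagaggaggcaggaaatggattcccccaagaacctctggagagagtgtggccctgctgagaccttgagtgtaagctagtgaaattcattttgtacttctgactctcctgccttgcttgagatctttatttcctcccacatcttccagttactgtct
It held 0 CpG. Its GC content of 45.1% lay near those of all peaks, which ranged from 45.2% to 47.7% across the libraries, where the known bases of hg38 have 40.9%. The ratio of observed to expected CpG in all peaks was 0.21 to 0.273, around the genome's 0.24.

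Vehicle replicates 1, 2 and 3 had 18801, 47648 and 28850 peaks on chromosomes 1 to 22, X and Y, and OA replicates 1, 2 and 3 had 32363, 25540 and 9091. Vehicle replicate 2 and OA replicate 3 stand apart, with the most and the fewest peaks, and they lie on opposite sides of the comparison. Read numbers behind these lists are unknown, so no counting interval can be given, and the part that depth plays in any difference was not tested. For that reason each length was also taken from the 9000 peaks of each library with the highest −log10 p, a number that even OA replicate 3 reaches. This equalises the number of peaks and not the depth, since a peak's p-value and its edges both move with reads. In bulk libraries, fewer cells carrying the mark and less of the mark per cell cannot be told apart.

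The label was checked against genes with a known state. None of the 77 cytoplasmic ribosomal protein genes, active in every cell, had its start site in a domain in any library, and all 77 had an H3K4me3 peak within 1 kb of it in at least 2 of 3 libraries of each treatment. Of the H3K27me3 domains, 0.352% to 2.21% overlapped H3K4me3, and 0.187% to 1.38% with IgG peaks removed. The overlap expected for domains of this size was not computed, so this share alone does not check the label. The breast epithelial markers were KRT5, KRT14, KRT17, TP63, EGFR, CDH1, EPCAM and ITGA6. At the start site, 7 of these 8 had H3K4me3 in vehicle and 6 in OA, while 1 of 6 markers of other cells had it. Of all 20033 protein-coding genes, 11595 had it in vehicle and 12397 in OA, so the mark is common and these short lists are a weak check. In every library, 0 markers of either kind had an H3K27me3 domain there, so that count does not tell them apart. Of all protein-coding genes only 0.309% to 2.58% had one, so a count of 0 in such lists says little. The classic Polycomb targets were mostly not called, however. Of the 39 HOX genes, 1, 1 and 1 had a start site in a domain in vehicle and 0, 2 and 0 in OA. These were HOXD10 and HOXD13, which pattern the limb, and 10 to 14 HOX genes in vehicle and 6 to 13 in OA had a peak within 3 kb of the gene. As shares, start sites in a domain were 2.56% in each vehicle library and 0%, 5.13% and 0% in OA, beside 0.309% to 2.58% of all protein-coding genes. For a peak within 3 kb of the gene, HOX shares were 25.6% to 35.9% in vehicle and 15.4% to 33.3% in OA. Among all protein-coding genes these were 17.7% to 23.2% in vehicle and 10.7% to 25.5% in OA. IgG peaks overlapped 0.29% to 1.73% of all H3K27me3 peaks, but 27 to 93 of the 100 strongest peaks of a library, so most of the top of some lists was also called with IgG.

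Domains were short in every library, with the lowest medians in OA. Joining gave 17315, 37525 and 25099 domains in vehicle and 29069, 23050 and 8755 in OA, with no difference beyond the spread (two-sided exact permutation test, p = 0.5; 3 libraries against 3 cannot go below 0.1). The median domain length was 430, 567 and 419 bp in vehicle and 409, 405 and 278 bp in OA. Every OA library lay below every vehicle library, though OA replicates 1 and 2 were close to vehicle replicates 1 and 3. The means of 472 ± 82.5 bp and 364 ± 74.5 bp (SD, n = 3 each) differed by -108 bp (exact permutation test, p = 0.1). This size rested on the libraries that stand apart: without vehicle replicate 2 and OA replicate 3 the difference was -17.5 bp.

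**Figure D1:**
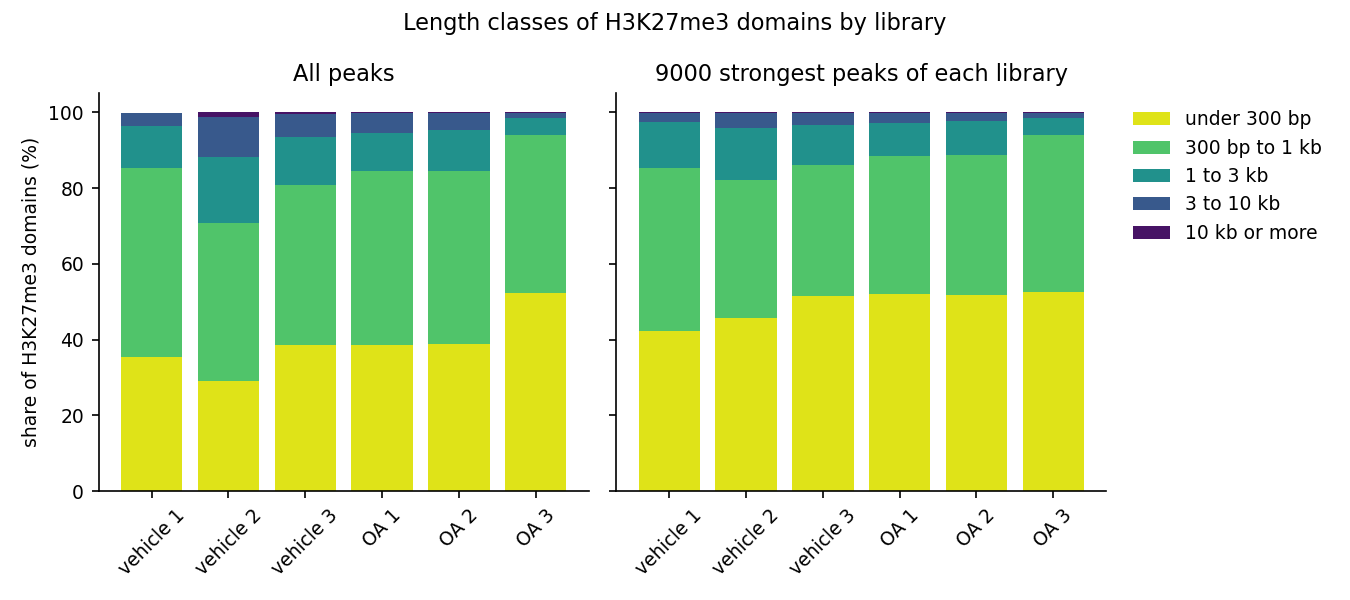
Share of H3K27me3 domains (%, vertical axis) in 5 length classes for each vehicle and OA library, with all peaks on the left and with the 9000 strongest peaks of each library on the right. Domains under 300 bp made up 29.1% to 52.4% with all peaks, and OA replicate 3 had the lowest share of domains of 1 kb or more in both panels.

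Few domains were broad. Domains of at least 10 kb numbered 32, 409 and 72 in vehicle and 72, 40 and 5 in OA, which is 0.185%, 1.09% and 0.287% against 0.248%, 0.174% and 0.0571% of all domains (exact permutation test, p = 0.2). Vehicle replicate 2 alone held 409 of them, and the groups overlapped. Within such domains, peaks covered only 19.4% to 31.9% of the span, so their length comes largely from the joining of separate peaks. In vehicle, 14.8% to 37.1% of peaks lay in a domain of more than 1 peak, against 6.94% to 18.8% in OA.

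With 9000 peaks from each library the overall median no longer separated the groups. It was 367.5, 337 and 286 bp in vehicle and 284, 286 and 277 bp in OA (exact permutation test, p = 0.2), with vehicle replicate 3 and OA replicate 2 equal. The 90th percentile, a further summary outside the planned measures, did separate them, at 1255, 1543 and 1264 bp in vehicle and 1093, 1073 and 799 bp in OA (p = 0.1 by the same exact test, the smallest possible). With all peaks it overlapped, at 1338, 3466 and 2000 bp in vehicle and 1536, 1509 and 798 bp in OA (exact permutation test, p = 0.3), and so did the share of domains of at least 10 kb among the 9000 peaks (0.236%, 0.241% and 0.142% in vehicle, 0.212%, 0.0931% and 0.0577% in OA). The equal number of peaks joined into 8486, 8308 and 8423 domains in vehicle and 8507, 8589 and 8669 in OA, so fewer peaks of the OA libraries had another within 5 kb (exact permutation test, p = 0.1).

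The difference in length was largest for domains at promoters, a measure added after the data were seen. A longer domain is more likely to come within 3 kb of a start, so this class is not independent of length. The same holds for the ratio of promoter to intergenic length given below. How much of the difference comes from this assignment was not tested. Their median length was 524, 735 and 568 bp in vehicle and 485, 504.5 and 329 bp in OA, with every OA library below every vehicle library. The means were 609 ± 111 bp and 439.5 ± 96.2 bp (SD, n = 3; exact permutation test, p = 0.1). Without vehicle replicate 2 and OA replicate 3, 546 bp and 494.8 bp remained. In the 9000 strongest peaks the gap was wider than the spread within either group: 514, 516 and 469 bp in vehicle against 353, 374 and 327.5 bp in OA. Here the means were 499.7 ± 26.6 bp and 351.5 ± 23.3 bp, a difference of -148 bp (exact permutation test, p = 0.1), and leaving out any 1 library gave -163.5 to -136 bp. Without both of the libraries that stand apart it was -128 bp. When weaker peaks were dropped at a q-value of 0.01, promoter domains again separated, with medians of 467, 561 and 430 bp in vehicle and 309, 329 and 210 bp in OA, but so did the other classes. When all peaks within 10 kb were joined the groups overlapped, at 675, 2072.5 and 887 bp in vehicle and 684.5, 706 and 376 bp in OA.

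Away from promoters, the equal-number lists of the groups overlapped. Gene-body domains had medians of 330, 301 and 257 bp in vehicle and 264, 265.5 and 260 bp in OA. Intergenic domains had medians of 339, 324 and 267 bp in vehicle and 272, 273 and 267 bp in OA. At a q-value of at most 0.01, however, gene-body medians were 273, 327.5 and 244 bp in vehicle and 239.5, 233 and 197 bp in OA. Intergenic medians were then 285, 357 and 260 bp in vehicle and 253, 243.5 and 208 bp in OA, so both classes separated as promoter domains did, by smaller differences (-58.3 and -65.8 bp beside -203 bp). In the equal-number lists, vehicle replicate 3 was as short as the OA libraries in both classes and longer than each of them at promoters. The ratio of the promoter to the intergenic median, taken within each library, was 1.52, 1.59 and 1.76 for vehicle and 1.30, 1.37 and 1.23 for OA, with no overlap (exact permutation test, p = 0.1). With all peaks the same ratio overlapped between groups, at 1.28, 1.37 and 1.47 in vehicle and 1.23, 1.30 and 1.22 in OA (exact permutation test, p = 0.2). Over 13 single values compared with all peaks, the smallest Benjamini-Hochberg adjusted p of the exact permutation tests was 0.325. That adjustment did not cover the equal-number lists, the lists at a q-value of at most 0.01 or further summaries, whose p-values are unadjusted.

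**Figure D2:**
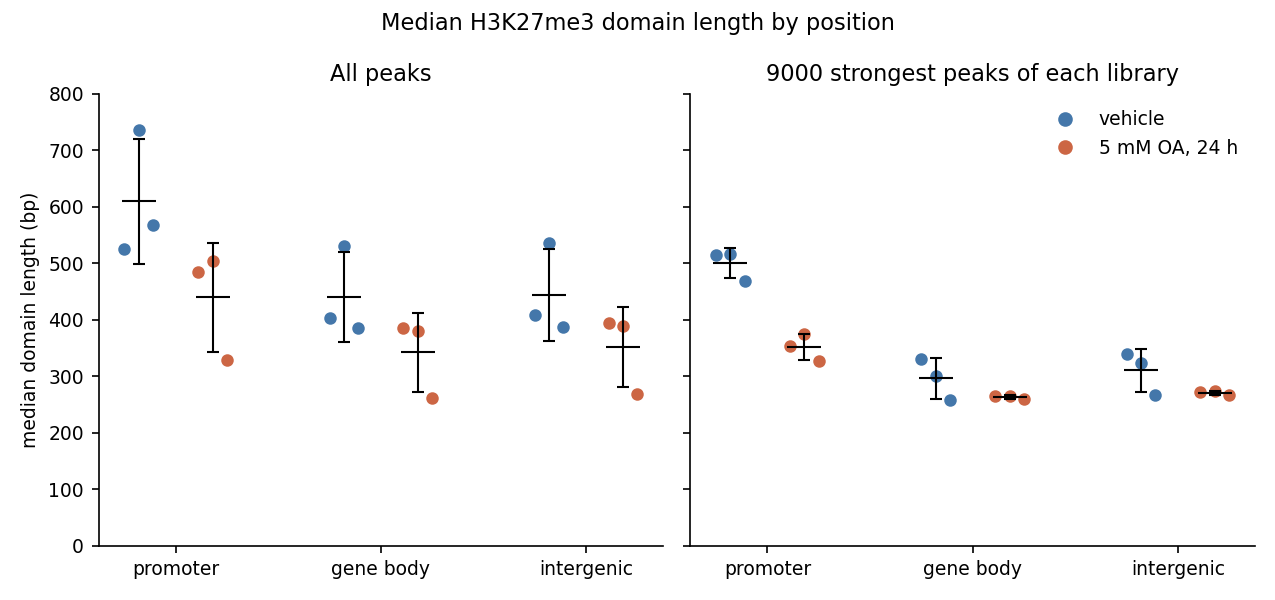
Median H3K27me3 domain length (bp, vertical axis) of promoter, gene-body and intergenic domains. Points are libraries, the bar is the mean and the whiskers are the SD (n = 3); with the 9000 strongest peaks, promoter domains are 469 to 516 bp in vehicle and 327.5 to 374 bp in OA, while the other classes overlap.

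Lower promoter medians in OA were spread over the chromosomes. With the 9000 strongest peaks, every OA library had a lower promoter median than every vehicle library on 15 of 23 chromosomes and the reverse held on 0, and the OA mean was lower on 22. For gene-body domains complete separation held on 4 chromosomes and for intergenic domains on 3, although the OA mean was lower there too, on 22 and 21 chromosomes. With all peaks, complete separation held on 12 chromosomes for promoter, 8 for gene-body and 5 for intergenic domains. Chromosomes of one library are not replicates, so these counts are a description. On chromosome 18, promoter medians were 535, 397.5 and 552 bp in vehicle and 218.5, 290.5 and 222.5 bp in OA. On chromosome 21, the exception, they were 482, 584 and 274 bp in vehicle and 563.5, 522 and 507 bp in OA.

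**Figure D3:**
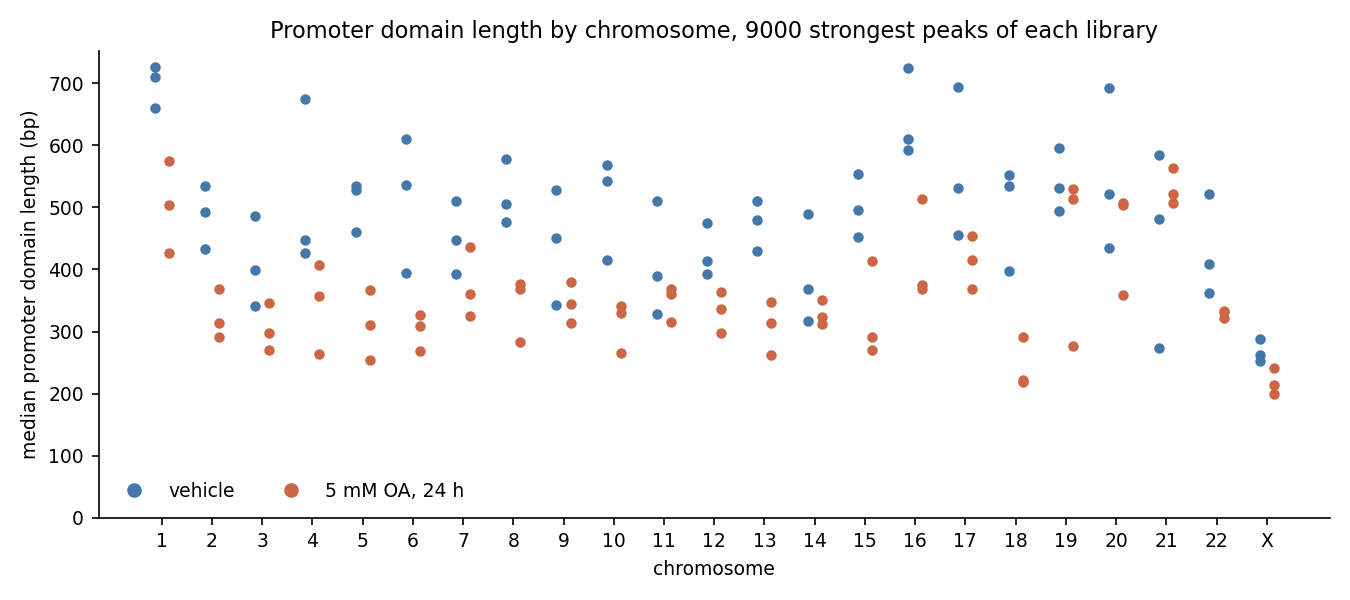
Median length (bp, vertical axis) of promoter domains on each chromosome (horizontal axis) with the 9000 strongest peaks of each library, 1 point a library. Vehicle points lie above OA points on 15 of 23 chromosomes, and chromosome 21 shows the opposite order of means.

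The shares of promoter, gene-body and intergenic domains did not differ beyond the spread between libraries. Promoter domains made up 23.3%, 20% and 21.2% of domains in vehicle and 22.5%, 21.1% and 20.7% in OA (exact permutation test, p = 0.9), and promoter windows hold 17.6% of the known bases of hg38. Gene-body domains made up 39.6%, 43% and 41.4% in vehicle and 40.5%, 41.8% and 41.7% in OA (exact permutation test, p = 1), beside 46.3% of known bases. Intergenic domains made up 37% to 37.4% in vehicle and 37% to 37.6% in OA (exact permutation test, p = 0.8), beside 36% of known bases. The shares of domains overlapped between the groups in each class. A domain can count as promoter from outside the window, so covered bases are the like measure. Promoter windows held 24.8%, 19.7% and 22.3% of these in vehicle and 22.4%, 21.5% and 20.8% in OA, a modest excess in all 6 libraries. The intergenic share of covered bases did separate, at 37.2%, 37.5% and 37% in vehicle and 38%, 37.7% and 38.7% in OA (exact permutation test, p = 0.1).

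The rank of promoter peaks within their own libraries separated the groups with all peaks and not at equal peak number. With all peaks, the median percentile of promoter peaks by −log10 p, where the strongest peak of a library is at 100, was 53, 51.7 and 52.7 for vehicle and 50.1, 51.6 and 51.1 for OA, with no overlap (exact permutation test, p = 0.1). The difference in means was -1.5 percentile points, and OA replicate 2 lay just below vehicle replicate 2. With the 9000 strongest peaks the groups overlapped, at 50.3, 50.5 and 49.7 for vehicle and 46.7, 49.7 and 51.1 for OA (exact permutation test, p = 0.7), and they overlapped at a q-value of at most 0.01 (p = 0.2) and with protein-coding genes only (p = 0.3).

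The share of the covered length that fell on each chromosome was similar in vehicle and OA. By limma on log2 shares, 0 of 23 chromosomes rose and 0 fell at an adjusted p below 0.05 (0% in each direction), and 0 had an unadjusted p below 0.05. The smallest p-values were for chromosome 16, at 2.82%, 2.56% and 2.89% in vehicle and 2.76%, 3.12% and 3.28% in OA, chromosome 5 and chromosome 6. Chromosome 5 had 5.97%, 5.84% and 5.55% in vehicle and 6.12%, 6.22% and 6.07% in OA, and chromosome 6 had 5.61%, 5.88% and 5.57% against 5.41%, 5.41% and 5.27%. Their adjusted p by limma was 0.832. Chromosome X varied widely among the vehicle libraries, with 2.99%, 5.1% and 4.63% in vehicle and 3.62%, 3.71% and 2.94% in OA, and without vehicle replicate 1 it was the 1 chromosome that passed (log2 difference -0.51, limma adjusted p = 0.0489). Relative to its known bases, chromosome 1 was covered 1.63 times as much as its share in the mean of the 6 libraries and chromosome 4 only 0.434 times.

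**Figure D4:**
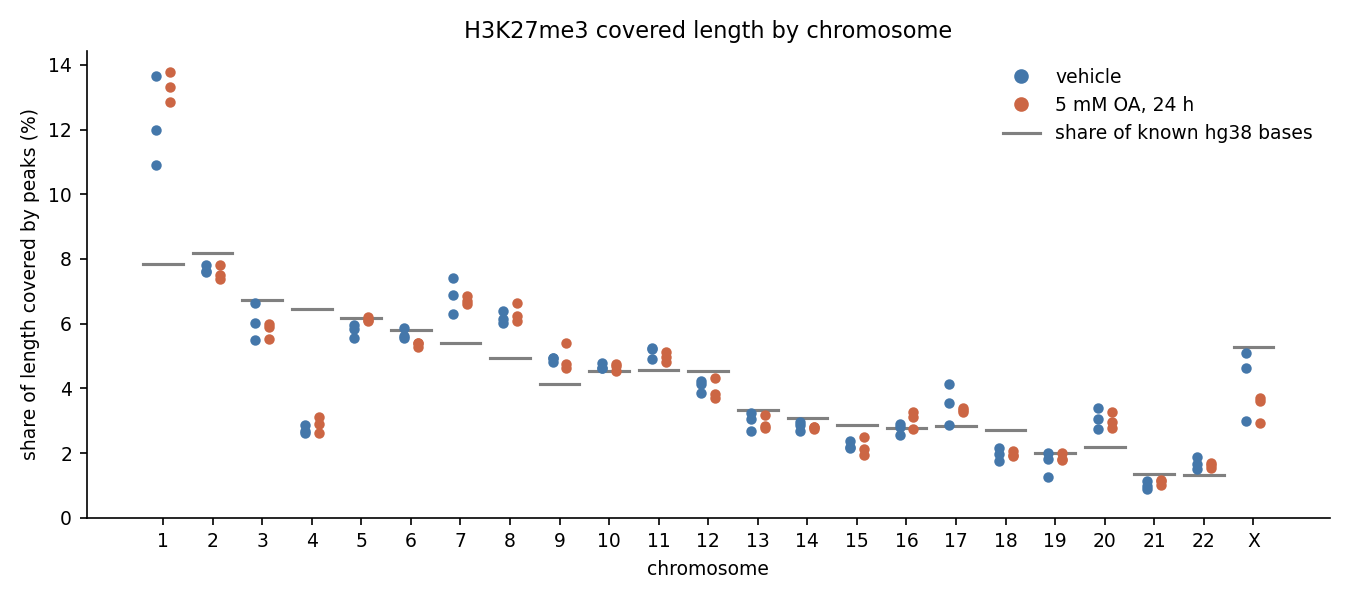
Share of the length covered by H3K27me3 peaks (%, vertical axis) on each chromosome (horizontal axis), 1 point a library, with grey bars for the chromosome's share of known hg38 bases. Vehicle and OA points overlap on all chromosomes but 5 and 6, and all libraries lie above the bar on chromosome 1 and below it on chromosome 4.

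To compare single places, the domains of the 6 libraries were merged where they shared at least 1 base. Of 80951 merged domains, 53239 were called in 1 library alone, 27712 in at least 2 and 1629 in all 6. The lists overlapped in part only: with 9000 peaks each, 21.8% to 24% of a vehicle library's peaks overlapped those of another vehicle library, 17.2% to 21.4% between the groups, and 14.9% to 17.8% among the OA libraries. Of the 1629 shared domains 41.9% lay at promoters, against 17.2% of those called in a single library, but the former were also longer, with median merged lengths of 3431 bp and 288 bp. An IgG peak overlapped 3.56% of the shared domains.

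Among the shared domains, none passed the test for a change in rank or length. For the rank of the strongest peak, 0 of 1629 rose and 0 fell (0% each; limma, adjusted p below 0.05), with 93 at an unadjusted p below 0.05. For the called length centred on each library's median, 0 rose and 0 fell (0% each; limma), with 66 at an unadjusted p below 0.05. Before centring, the median difference in called length over the shared domains was -0.51 on the log2 scale (OA minus vehicle), with medians of 807, 1379 and 967 bp in vehicle and 887, 835 and 452 bp in OA, so OA replicate 1 was above vehicle replicate 1. At a q-value of at most 0.01, 1 of 125 shared domains passed, on chromosome 1 (chr1:144254278-144259944, 113690 bp from the start of PPIAL4E), with 954, 2439 and 1554 bp under peaks in vehicle and 231, 172 and 168 bp in OA (limma adjusted p = 0.019).

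The smallest p-values for length among all shared domains included PCDH1, which encodes a protocadherin of cell-cell adhesion. At its start site (chr5:141874852-141885308), peaks covered 2201, 4344 and 4399 bp in vehicle and 469, 674 and 237 bp in OA. Every OA value was under every vehicle value, yet the log2 difference of -2.48 ± 0.53 (SE) after centring had an adjusted p of 0.502 by limma. PCDH1 is also one of the genes beside the study's own H3K27me3 differential regions, which were chosen on these same samples, so it is not independent evidence. In the opposite direction, an intergenic domain 51081 bp from UNCX had 238, 746 and 284 bp under peaks in vehicle and 963, 1215 and 743 bp in OA (limma adjusted p = 0.787), where vehicle replicate 2 exceeded OA replicate 3.

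For rank, ONECUT3 and TNFRSF19 were among the 3 lowest p-values with a lower rank in OA. The strongest peak at ONECUT3, a homeobox transcription factor, was at percentile 87.2, 98.1 and 76.9 in vehicle and 16.8, 40.3 and 1.62 in OA (limma adjusted p = 0.786). At TNFRSF19, a receptor of the TNF family, it was at 87.1, 92.6 and 91.1 in vehicle and 61.4, 13.3 and 23.9 in OA, with the same adjusted p by limma; like PCDH1, TNFRSF19 is on the study's list drawn from these samples. The groups did not overlap at either gene. OR8A1, an olfactory receptor gene, had a higher rank in OA, at 88.7, 90.9 and 68.8 against 47.7, 17.2 and 23.2 in vehicle, and also failed the correction.

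The longest shared domains were mostly not gene domains. Of the 10 longest, 6 overlapped an IgG peak, 0 held a protein-coding start site, and the longest (chr4:49091389-49156048) joined to 50720, 37944 and 25242 bp in vehicle and 64660, 24429 and 16847 bp in OA. By mean joined length over the 6 libraries, the ranking used here, the longest without IgG was intergenic, 35445 bp from ACAP2 (chr3:195478465-195505380), with 26234, 26894 and 26094 bp in vehicle and 18713, 20039 and 14006 bp in OA. Joined lengths of the vehicle libraries were close to each other there and all above the OA libraries. The length under peaks overlapped between the groups, at 7327, 9008 and 7064 bp in vehicle and 6042, 8605 and 4387 bp in OA. After centring, its limma adjusted p was 0.948. At ESRRG (chr1:216705671-216730135), which encodes estrogen-related receptor gamma, joined lengths were 18190, 11431 and 17656 bp in vehicle and 16680, 15160 and 202 bp in OA, so OA replicate 3 alone was short. At SYT2 (chr1:202685826-202711167), a calcium sensor of synaptic vesicle release, they were 10870, 24813 and 25342 bp in vehicle and 2503, 9684 and 203 bp in OA.

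More domains were called in every vehicle library and no OA library than the reverse. Of the 27712 merged domains, 692 were vehicle-only (2.5%) and 68 were OA-only (0.245%), and 0 of either overlapped an IgG peak. With the 9000 strongest peaks the numbers were 175 (2.03%) and 65 (0.756%) of 8603. The imbalance with all peaks depended on the libraries that stand apart: without vehicle replicate 2 and OA replicate 3 there were 1270 vehicle-only and 1669 OA-only domains among 18608. With the strongest 9000 peaks and without these libraries, 745 were vehicle-only and 420 OA-only. Vehicle-only domains had a median length of 1467 bp and lay at promoters in 26.4% of cases, and OA-only domains had a median of 909 bp with 23.5% at promoters and 50% in gene bodies, compared with 24.4% and 40.2% of all domains called in at least 2 libraries.

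By the within-library rank of their weakest library, the leading vehicle-only domains included one within TTN, which encodes the muscle protein titin (chr2:178691385-178692108, 176, 524 and 658 bp in vehicle), and one 1807 bp from BSX, a homeobox gene (chr11:122983641-122986454, 999, 1402 and 2716 bp). Ranked above these were an intergenic domain 961588 bp from ZPLD1 and one overlapping GATA4 (chr8:11678122-11684595, 2738, 799 and 6204 bp). Others lay nearest to NPVF (92034 bp), OR4F5 (41520 bp), MDFIC2 (207039 bp), OR8S1 (1481 bp) and RAB6D (51326 bp). Another lay within KCND2, and the nearest start site was that of TSPAN12, 277600 bp away. Leading OA-only domains lay 41230 bp from TBX5, a limb and heart transcription factor (chr12:114447374-114451751, 2225, 2843 and 177 bp in OA), and 2117 bp from NES, which encodes the intermediate filament nestin (chr1:156679524-156682407, 924, 2008 and 180 bp). OA replicate 3 had the shortest call at both, but the longest of 532, 236 and 546 bp at the OA-only domain nearest PRSS3.

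At protein-coding genes, a domain spanned the start site of 347, 516 and 359 genes in vehicle and 434, 270 and 62 in OA, of 20033 (exact permutation test, p = 0.3). Of these genes, 14 had such a domain in all 6 libraries. They included WNT3A, a ligand of canonical WNT signalling, CYP26A1, which breaks down retinoic acid, INSRR, a receptor related to the insulin receptor, LRP2, the endocytic receptor megalin, LMOD1, an actin-binding protein of smooth muscle, and CTNNA3, a catenin of cell junctions. At CYP26A1 the lengths were 2329, 3400 and 2601 bp in vehicle and 2035, 2134 and 1896 bp in OA, and at INSRR 1877, 2507 and 1826 bp in vehicle and 2764, 1659 and 1604 bp in OA. The groups overlapped at INSRR and not at CYP26A1.

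A domain over the start site was found in all vehicle and no OA library for 21 genes (0.105%), and in all OA and no vehicle library for 1 gene, the olfactory receptor gene OR2V2 (0.00499%). At equal peak number (9000) the counts were 4 (0.02%) and 1 (0.00499%): OXCT2, NIBAN1, SLC30A3 and TNFRSF19 for vehicle and LAMA2, a laminin chain, for OA. Of these, only OXCT2 was vehicle-only with all peaks, and NIBAN1, SLC30A3 and TNFRSF19 belong to the study's own list, drawn from these samples. All of these genes were listed after their values were seen. Among them were CACNG4, an auxiliary subunit of neuronal calcium channels and glutamate receptors, HS6ST3, a heparan sulfate sulfotransferase, SOSTDC1, a secreted antagonist of BMP and WNT signalling, and RSPO2, an amplifier of WNT signalling. At CACNG4 the domain was 4033, 4479 and 4323 bp long in vehicle and did not reach the start site in OA. The divergent genes DUSP15 and TTLL9 share 1 domain of 2678, 3598 and 2508 bp in vehicle.

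Where the call over the start site was absent in OA, peaks nearby were often present. Within 3 kb of the start site of CACNG4, peaks still covered 946, 1061 and 687 bp in OA, against 2092, 1840 and 2116 bp in vehicle. At HS6ST3 the covered length was 2734, 1959 and 2170 bp in vehicle and 703, 864 and 0 bp in OA. Of the 21 genes, 2 had no peak within 3 kb in any OA library, FCRL1, an Fc receptor-like gene of B cells, and PPP2R2B, a regulatory subunit of protein phosphatase 2A. At OR2V2 peaks covered 585, 613 and 490 bp in OA and 0 bp in each vehicle library.

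**Figure D5:**
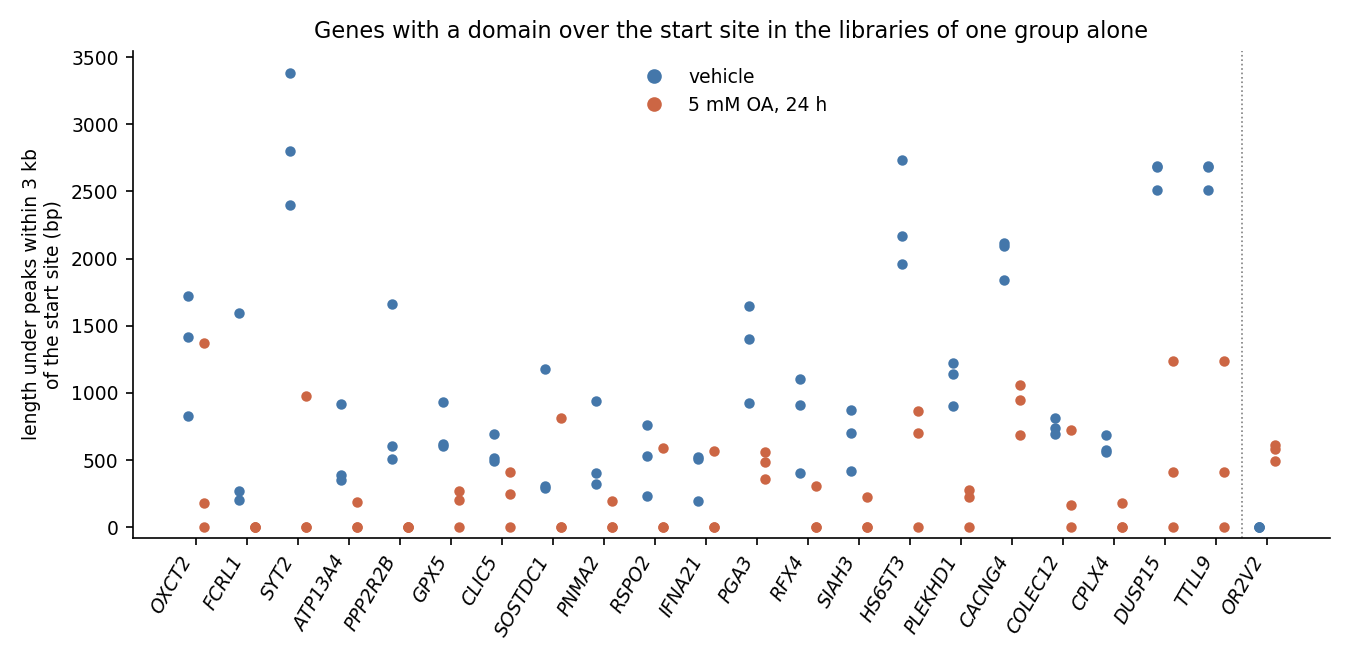
Length under H3K27me3 peaks within 3 kb of the start site (bp, vertical axis) for the genes with a domain over the start site in the libraries of one group alone, 1 point a library (n = 3 a group). Most of the 21 vehicle-only genes, left of the dotted line, still had a peak nearby in at least 1 OA library, as at CACNG4 with 687 to 1061 bp, and OR2V2 stands to the right of the line.

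Developmental transcription factors, the usual holders of H3K27me3 at promoters, had lower counts in OA. Of 122 listed, 10, 9 and 8 had the start site in a domain in vehicle and 3, 2 and 0 in OA, which is 8.2%, 7.38% and 6.56% against 2.46%, 1.64% and 0%. Among all protein-coding genes the shares were 1.73%, 2.58% and 1.79% in vehicle and 2.17%, 1.35% and 0.309% in OA, so with all peaks the listed genes stood above the background in each vehicle library and near it in OA. In OA replicate 1 the share of all genes was above that of vehicle replicates 1 and 3, while only 3 listed genes were called. With the 9000 strongest peaks the counts were 6, 1 and 1 in vehicle and 2, 2 and 0 in OA, and the groups overlapped. These are 4.92%, 0.82% and 0.82% in vehicle and 1.64%, 1.64% and 0% in OA, beside 0.913%, 0.424% and 0.694% for vehicle and 0.574%, 0.494% and 0.304% for OA among all genes, so at equal peak number OA replicates 1 and 2 stood further above the background than vehicle replicates 2 and 3. The counts also depended on the joining, with 4, 4 and 3 in vehicle and 2, 2 and 0 in OA when only peaks within 1 kb were joined. No listed gene had a domain over its start site in every library of one treatment while lacking it in every library of the other.

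The 18 factors with a domain over the start site in any library differed from library to library. DLX3, a homeobox gene of skin and limb, had a domain of 916, 1811 and 1364 bp in vehicle and of 911 bp in OA replicate 2 alone. POU4F1, a regulator of sensory neurons, had 6403 and 6302 bp in vehicle replicates 2 and 3, and TFAP2B, a regulator of neural crest, 3134 and 3374 bp in the same libraries, with no call in OA at either. SOX14 had 4098 and 3348 bp in vehicle replicates 2 and 3 and 902 bp in OA replicate 1. DLX5, by contrast, was called over the start site in OA replicate 2 alone, with 3355 bp. With any peak within 3 kb of the gene, 54, 62 and 52 factors counted in vehicle and 56, 50 and 30 in OA, which overlap. These are 42.6% to 50.8% in vehicle and 24.6% to 45.9% in OA. Among all protein-coding genes the shares were 17.7% to 23.2% in vehicle and 10.7% to 25.5% in OA.

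Of the 19 WNT ligand genes, 2, 3 and 1 had a domain over the start site in vehicle and 4, 2 and 1 in OA. These are 10.5%, 15.8% and 5.26% in vehicle and 21.1%, 10.5% and 5.26% in OA. Among all protein-coding genes the shares were 1.73% to 2.58% in vehicle and 0.309% to 2.17% in OA. With the 9000 strongest peaks the counts were 2, 1 and 1 in vehicle and 2, 2 and 1 in OA. Shares of all genes were then 0.424% to 0.913% in vehicle and 0.304% to 0.574% in OA. WNT3A was the 1 ligand called in all 6 libraries, with 2470, 2601 and 2609 bp in vehicle and 2355, 3253 and 1854 bp in OA. None of the 13 genes for PRC2 subunits and H3K27 demethylases had a domain over the start site in any library. The background share is so low that 0 of 13 does not set these genes apart. All 13 had H3K4me3 at the start site under both treatments, beside 11595 (vehicle) and 12397 (OA) of all 20033 protein-coding genes.

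The study's own list of genes beside H3K27me3 regions that differed was drawn from these samples and is not independent evidence. Of its 11 genes found in GENCODE, 3, 7 and 6 had a domain over the start site in vehicle and 3, 5 and 0 in OA. These are 27.3%, 63.6% and 54.5% in vehicle and 27.3%, 45.5% and 0% in OA, beside 0.309% to 2.58% of all protein-coding genes. With the 9000 strongest peaks the counts were 3, 4 and 4 in vehicle and 0, 1 and 0 in OA, with no overlap. The shares were then 27.3%, 36.4% and 36.4% in vehicle and 0%, 9.09% and 0% in OA, beside 0.304% to 0.913% of all genes. NIBAN1, a stress response gene, had 1107, 2168 and 2277 bp in vehicle and 1193 bp in OA replicate 2 alone. LGR6, a receptor for R-spondins that marks stem cells, had 2365 and 9554 bp in vehicle replicates 2 and 3 and 3024 bp in OA replicate 2.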

How the data were processed

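CUT&RUN for H3K27me3 was performed by the authors on MCF-10A cells (vehicle or 5 mM OA, 24 hours, 3 libraries each). Peaks were called by the authors in each library separately. The methods name SICER2 for broad H3K27me3 peaks and the submitters' processing notes MACS2 2.2.7.1 and hg38. The lists have the broad layout that MACS2 writes, and the aligner is not given in the sources used here. The deposited fold (column 7) is a peak's enrichment ratio, and the deposited −log10 p and −log10 q (columns 8 and 9) come from the authors' caller, not scaled between libraries. The highest q-value was 0.1. The H3K4me3 and IgG narrow peak lists of the authors hold the same fold and −log10 columns. Their untreated H3K4me3 lists were not used here. Differential regions of the study were not reused.

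Peaks on other contigs were left out (0.399% to 1.07%). Peaks within 5 kb were joined and classed with GENCODE release 44. Group means of per-library values were compared by exact permutation, two-sided. Chromosome shares (log2), normal scores of ranks and log2 called lengths centred on library medians were tested with limma 3.58.1 in R 4.3.3, Benjamini-Hochberg adjusted over all features. Other steps ran in Python 3.11.15 with numpy 2.4.6 and scipy 1.17.1, and figures were drawn with matplotlib 3.10.9. Joining was tested on simulated data (500 of 500 planted domains recovered), as was limma on called lengths (96 of 200 planted log2 changes of 2 recovered among 1629 domains, 3 others called). With 3 libraries of 1 line, p-values measure the spread between these cultures only.

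The members, gene lists and tests were chosen with earlier results of these data known. Named were genes at the longest shared domains, up to 10 vehicle-only and 5 OA-only domains by the rank of their weakest library, the 3 smallest p-values in each direction where none passed, chromosomes likewise, and listed genes called in most libraries. Some genes that this rule names are left undescribed. Promoter domain lengths, their ratio to intergenic ones and the count of developmental factors were added after seeing the data. Alternatives were joining within 1 or 10 kb, the 9000 strongest peaks, a q-value of at most 0.01, IgG peaks removed, 1 kb promoters, protein-coding genes only, shares of covered bases, other cutoffs for long domains, other H3K4me3 and presence rules, a replicate block, and the omission of each replicate in turn.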

Additional observations from a re-analysis of the deposited data

How the results depend on the processing

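Depth is unknown for broad peak lists, so the lengths could not be scaled to reads, and the causes of the shifts below were not tested. Differences are OA minus vehicle. The median domain length, the promoter domain length, its ratio to intergenic length, the percentile of promoter peaks and the count of developmental factors kept their lower OA mean under every alternative run. With the 9000 strongest peaks, OA had 182.7 more domains on average. Joining within 1 kb left no domain of at least 10 kb in any library, a difference of 0, and gave 0.322 points in the promoter share. The gene-body share differed by 0.784 points with joining within 10 kb, 0.328 with the 9000 strongest peaks, 0.0828 without IgG peaks, 0.403 with promoters of 1 kb and 0.0875 with protein-coding genes only. The intergenic share differed by -0.0489 points without IgG peaks and -0.0343 with protein-coding genes only. The share overlapping H3K4me3 differed by -0.0536 points when H3K4me3 in any 2 of the 6 libraries was used. The HOX count differed by 0 with the 9000 strongest peaks and at a q-value of at most 0.01. At that q-value 1 shared domain was shorter in OA, and 180 domains were vehicle-only and 8 OA-only. Vehicle-only and OA-only domains numbered 445 and 45 with joining within 10 kb, 175 vehicle-only with the 9000 strongest peaks, and 4664 and 1236 when 2 libraries of a group sufficed.

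Leaving out 1 replicate at a time gave promoter share differences of -0.798 to 0.831 points, gene-body differences of -0.864 to 0.821, intergenic differences of -0.116 to 0.162, GC differences of -0.043 to 1.17 points and HOX differences of -1 to 0. It gave 0 to 1 chromosome lower in OA, 814 to 3217 vehicle-only domains (the highest without vehicle replicate 1) and 97 to 801 OA-only domains (the highest without OA replicate 3, where an OA-only domain needs 2 calls). Without both vehicle replicate 2 and OA replicate 3, an alternative chosen after seeing the data, OA had 4852 more domains on average, the gene-body share differed by 0.627 points, the intergenic share by -0.196 and GC by -0.213, the HOX count by 0, and there were 1270 vehicle-only and 1669 OA-only domains.

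The labels number the replicates 1 to 3 in each group. Deviations of same-numbered libraries correlated at 0.033, 0.4 and 0.058 for chromosome shares, 0.072, -0.016 and 0.02 for ranks and 0.037, 0.005 and -0.002 for lengths. Over 3 libraries a group, these correlations cannot decide whether the numbers pair the samples. With a replicate block, limma passed 0 chromosomes, 0 ranks and 0 lengths, and the difference in median domain length was -108 bp with a sign-flip p that cannot go below 0.25 (exact test).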
